A study of Mus musculus with 12 samples.

Results

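The genes described here encode the subunits of the AMPA and NMDA receptors, the ionotropic glutamate receptors that carry most fast excitatory transmission in the cortex. They were chosen by name: the identifiers in the count files that map to Gria1, Gria2, Gria3 and Gria4 (AMPA) and to Grin1, Grin2a, Grin2b, Grin2c, Grin2d and Grin3a (NMDA). These are 10 of the 29879 genes counted, and the rule uses names alone, though it was set with earlier results of these data known. RNA was sequenced from 12 libraries of mouse cortex at postnatal day 21, all from the SNAP25 bacTRAP line, in which a tagged ribosomal protein is placed under the control of Snap25, a gene of neurons. There were 3 libraries each of whole cortex homogenate (WCH), of RNA pulled down with the tagged ribosomes of homogenate (TRAP), of the synaptic band isolated on a gradient of sucrose and percoll, without pull-down (SNF), and of RNA pulled down with tagged ribosomes from that band (SynapTRAP). All 12 libraries come from animals with the transgene, and the labels name no treatment, sex or number of animals per library. Since nothing says that the replicates came from separate animals, p-values measure only the spread between these samples, which may be technical.

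AMPA receptors open on binding glutamate and pass the current that depolarizes the postsynaptic membrane. GluA2, the product of Gria2, makes the channel nearly impermeable to calcium after its transcript has been edited, and GluA1, GluA3 and GluA4 combine with it. NMDA receptors admit calcium and need the obligatory subunit GluN1, the product of Grin1, together with GluN2 subunits, which set the kinetics and bind glutamate. In rodent cortex GluN2B, encoded by Grin2b, prevails early in life and GluN2A, encoded by Grin2a, increases during postnatal development, while GluN3A, encoded by Grin3a, is a juvenile subunit that lowers calcium entry. Some dendritic mRNAs are translated near synapses, which is why mRNA on ribosomes of a synaptic fraction was set beside that of the homogenate.

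The subunits of a family are paralogs, so stretches of identical coding sequence bear on how far reads can be assigned to 1 of them. Between the longest coding sequence of each gene, the longest run shared by 2 AMPA subunits was 41 bases. It lay in Gria2 (GRCm38 chr3:80691348-80691388, minus strand, exon 14 of 16) and Gria4 (chr9:4432801-4432841, minus strand, exon 15 of 17). Between these sequences Grin1 shared at most 14 bases with any other NMDA subunit. Over all annotated transcripts the longest run was 59 bases for AMPA subunits, between Gria3 and Gria4, and 23 bases for Grin1, with Grin2b. The 41-base run shared by Gria2 and Gria4 is shown in capitals, with 12 bases on either side in lower case, 5′ to 3′ along the coding strand of GENCODE M21 transcripts.
Gria2: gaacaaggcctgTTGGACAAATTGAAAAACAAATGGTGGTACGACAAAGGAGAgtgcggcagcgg
Gria4: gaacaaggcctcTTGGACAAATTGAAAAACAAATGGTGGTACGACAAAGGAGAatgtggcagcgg

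Other genes overlap some of them or share sequence with them. Of the 50-base stretches of annotated Grin2a transcripts, 11.6% also occurred in transcripts of Aoc2 or Gm7328, genes that do not overlap Grin2a. For the other subunits the share on the same strand was 0.727% or less. On the opposite strand 8.24% of the Grin1 and 7.57% of the Grin2d stretches occurred in other genes. Aoc2 itself had 0 to 11 counts per library. An antisense transcript, Grin1os, shares 1307 exon bases with Grin1, and Gm45441 shares 643 with Grin2d. Neither Grin1os nor Gm45441 is among the genes counted. The sources used here do not say whether the counting used strand, so their reads may be included in the Grin1 and Grin2d counts and cannot be told apart.

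The libraries held 4368881 to 14335089 gene counts. The mitochondrial ribosomal RNAs took 32.3% to 49.0% of them in WCH, 0.879% to 5.01% in TRAP, 78.6% to 83.6% in SNF and 19.2% to 61.6% in SynapTRAP. That left 1819853 to 2111322 counts outside the mitochondrial genome in SNF and 3585898 to 7115176 in the other 9 libraries. Levels below are in CPM, counts relative to library size, after trimmed mean of M-values (TMM) scaling, which sets the bulk of genes level across libraries, and the adjusted p-values are from edgeR's quasi-likelihood test over the 13404 genes with enough counts, called under 0.05. All 10 subunits passed that filter. Their lowest raw count in a library was 26, for Grin2c, and the highest was 18729, for Grin2b. In bulk RNA, fewer cells of a type and less RNA per cell cannot be told apart.

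In whole cortex the NMDA family was dominated by Grin2b. In the AMPA family Gria2 led Gria3 and Gria1, by a margin that depends on the length used. Levels of different genes are compared per kilobase (kb) of merged exons. Grin2b (GRCm38 chr6:135713233-136173511, minus strand, ENSMUSG00000030209) stood at 45.8 ± 3.37 CPM per kb in WCH (SD, n = 3), against 26.8 ± 4.48 for Gria2, 24.9 ± 4.45 for Gria3 and 20.4 ± 1.79 for Gria1. Grin1 followed with 14.1 ± 1.27 and Gria4 with 10.98 ± 1.99. The low group was Grin3a with 2.25 ± 0.107, Grin2a with 1.68 ± 0.0984, Grin2d with 0.853 ± 0.0696 and Grin2c with 0.679 ± 0.122 CPM per kb. In this order the ranges over libraries of Gria2 and Gria3 overlapped, as did those of Gria3 and Gria1 and of Grin2d and Grin2c, while those of the other neighbours did not. Within each WCH library the order of the genes was the same.

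**Figure D1:**
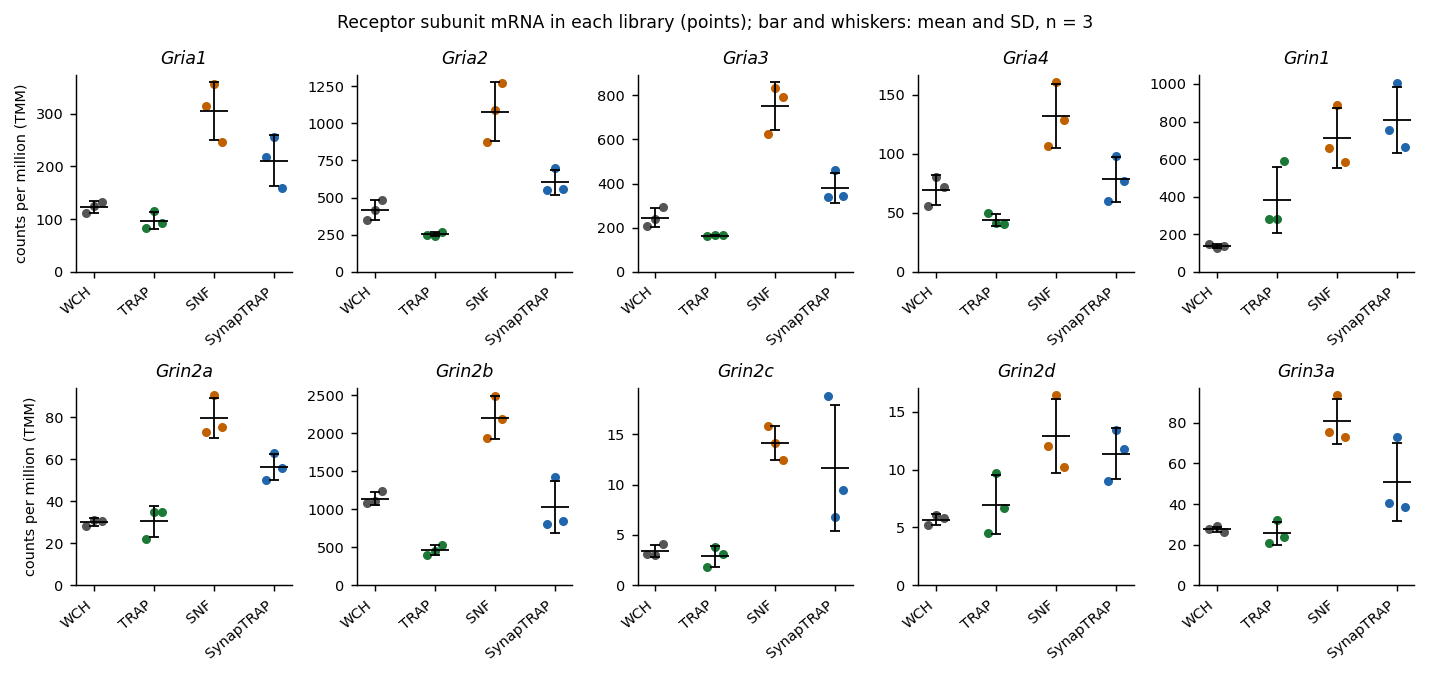
CPM after TMM scaling (vertical axes from 0, linear, a different range per panel) of the 10 receptor subunit genes in the 3 libraries of each preparation; points are libraries, and bar and whiskers are mean and SD. In all panels the SNF points lie above the WCH points, and only Grin1 has its highest mean in SynapTRAP.

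Tagged ribosomes from homogenate carried more of the obligatory NMDA subunit and less of its main partner than homogenate did. Grin1 (chr2:25291181-25319187, minus strand, ENSMUSG00000026959) had 149.9, 125 and 136 CPM in homogenate (replicates 1, 2 and 3) and 281, 281 and 587 after its pull-down. All TRAP libraries lay above all WCH libraries, with replicate 3 far above the other 2. The log2 fold change was 1.48 (SE 0.287, adjusted p = 0.00126 in edgeR), and without TRAP replicate 3 it was 1.07 (adjusted p = 0.0119 in edgeR).

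Grin2b went the other way. It had 1077, 1103 and 1234 CPM in WCH and 395, 449.8 and 528 in TRAP, a log2 fold change of -1.31 (SE 0.262, adjusted p = 0.00157 in edgeR), with no overlap between the groups. Grin2a (chr16:9567898-9995560, minus strand, ENSMUSG00000059003) had 28.0, 31.3 and 30.8 CPM in WCH and 21.8, 34.7 and 34.8 in TRAP, so that its TRAP libraries lay on both sides of WCH, with a log2 fold change of 0.02 (SE 0.220, adjusted p = 0.966 in edgeR).

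The AMPA subunits had lower means on tagged ribosomes than in homogenate, and 2 of the 4 passed the test. Gria2 (chr3:80681450-80802835, minus strand, ENSMUSG00000033981) had 347, 418 and 486 CPM in WCH and 248, 241 and 268 in TRAP. Its log2 fold change was -0.73 (SE 0.234, adjusted p = 0.0300 in edgeR), with all TRAP libraries below WCH. Gria4 (chr9:4417896-4796234, minus strand, ENSMUSG00000025892), the subunit known from fast-spiking interneurons, fell from 55.5, 80.2 and 72.1 CPM to 49.4, 40.9 and 40.3, a log2 fold change of -0.67 (SE 0.233, adjusted p = 0.0430 in edgeR). Leaving out any 1 of the 6 libraries ended the calls of Gria2 and Gria4, at log2 fold changes of -0.80 to -0.60 and -0.76 to -0.55, whereas Grin2b was then still called.

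Gria3 (chrX:41400854-41678601, plus strand, ENSMUSG00000001986) had 206, 239 and 293 CPM in WCH and 161, 166 and 166 in TRAP. The groups did not overlap, and the log2 fold change of -0.58 (SE 0.228) did not pass the test (adjusted p = 0.0707 in edgeR). Gria1 (chr11:57011387-57330244, plus strand, ENSMUSG00000020524) overlapped between WCH, at 112, 125 and 133 CPM, and TRAP, at 82.9, 115 and 93.4, with a log2 fold change of -0.34 (SE 0.231, adjusted p = 0.301 in edgeR). The remaining NMDA subunits, Grin2c, Grin2d and Grin3a, had log2 fold changes of -0.25, 0.29 and -0.11 (SE 0.374, 0.302 and 0.247) and were not called.

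Of the 10 subunits, 1 was thus called higher and 3 lower in TRAP against WCH, where 11.1% of all genes tested were called higher and 10.9% lower. Their median log2 fold change was -0.30, beside -0.01 for all genes tested. With counts outside the mitochondrial genome as the library size, the calls over all genes were 967 higher and 1759 lower in place of 1488 and 1459, and 4 subunits were called lower. With all gene counts they were 2862 and 231, and 0 subunits were called lower, with Grin2b at -0.74 (adjusted p = 0.180 in edgeR), while Grin1 stayed called higher, at 1.99. Cell type markers moved in the same comparison: 7 of 10 astrocyte and 6 of 10 oligodendrocyte markers were called lower, and the summed astrocyte marker level was 601 to 1365 CPM in TRAP against 2250.4 to 2870.5 in WCH. Of 10 general neuron markers, 4 were called higher and none lower, of excitatory neuron markers 3 higher and 1 lower, and of inhibitory neuron markers 2 higher and 1 lower. With counts outside the mitochondrial genome 7 astrocyte and 6 oligodendrocyte markers were called lower and 3 general neuron markers higher, and with all gene counts 4, 6 and 6. Excitatory and inhibitory markers had 1 higher and 1 lower each with counts outside the mitochondrial genome. With all gene counts 5 excitatory and 4 inhibitory markers were called higher and 0 lower. Their part in the subunit results was not tested.

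Every subunit was higher in the synaptic band than in homogenate, by 0.93 to 2.38 on the log2 scale (with all gene counts as the library size, 9 of 10 turned negative, as given below). Grin1 rose most, from its WCH values to 661, 889 and 583 CPM in SNF, a log2 fold change of 2.38 (SE 0.296, adjusted p = 5.0e-06 in edgeR). Grin2b reached 1938, 2491 and 2188 CPM, a log2 fold change of 0.95 (SE 0.260, adjusted p = 0.00653 in edgeR). Grin2a reached 73.1, 90.7 and 75.7 CPM, with a log2 fold change of 1.41 (SE 0.224, adjusted p = 5.46e-05 in edgeR). For each of these the SNF libraries all lay above the WCH libraries.

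The AMPA subunits rose by 0.93 to 1.61 on the log2 scale. Gria3 had 626, 833 and 789.9 CPM in SNF, with a log2 fold change of 1.61 (SE 0.233, adjusted p = 2.13e-05 in edgeR). Gria2 had 877, 1091 and 1271 CPM, with a log2 fold change of 1.37 (SE 0.237, adjusted p = 0.000121 in edgeR). Gria1 followed with 314, 355 and 246 CPM and a log2 fold change of 1.31 (SE 0.234), and Gria4 had the smallest rise, to 106, 161 and 129 CPM (log2 fold change 0.93, SE 0.234, adjusted p = 0.00374 in edgeR).

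The NMDA subunits of low level rose too. Grin2c (chr11:115249169-115267243, minus strand, ENSMUSG00000020734), a subunit known from cerebellar granule cells and astrocytes, went from 3.09, 3.04 and 4.13 CPM in WCH to 15.8, 14.1 and 12.4 in SNF, a log2 fold change of 2.05 (SE 0.371, adjusted p = 0.000202 in edgeR). Only 51 to 55 counts per SNF library lie behind this. Grin3a (chr4:49661611-49845744, minus strand, ENSMUSG00000039579) went from 27.5, 28.9 and 26.3 CPM to 75.4, 93.6 and 73.2, with a log2 fold change of 1.55 (SE 0.252). Grin2d (chr7:45831883-45878378, minus strand, ENSMUSG00000002771), known from early development and interneurons, went from 5.17, 6.08 and 5.78 CPM to 12.1, 16.5 and 10.2, with a log2 fold change of 1.18 (SE 0.313).

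All 10 subunits were therefore called higher in SNF against WCH, where 20.6% of all genes tested were called higher and 16.5% lower, and their median was 1.39 against -0.25 for all genes. All 10 had every SNF library above every WCH library, as had 25.6% of all genes tested. The scaling bears on this result. With counts outside the mitochondrial genome as the library size, 9 of 10 were called higher (all but Gria4, at 0.53, adjusted p = 0.0648 in edgeR), while the calls over all genes became 2044 higher and 4859 lower in place of 2757 and 2209. With RLE factors they were 2966 and 1415, and all 10 subunits were called. With all gene counts as the library size, mitochondrial RNA included, the calls over all genes were 11 higher and 11441 lower, the median of all genes moved to -2.60, 9 of the 10 subunits turned negative, and Grin1 was at 0.03. Relative to the median of all genes the subunits stood higher under each of these.

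In the authors' deposited table of genes enriched in the synaptic band, which lists 3508 genes, all 10 subunits appear, with log2 fold changes from 1.07 for Gria4 to 2.62 for Grin1. The authors' deposited tables of candidates for local translation, with 109 genes, and for somatic translation, with 275, hold 0 of the 10. Both are short beside the 13404 genes tested here, so the absence of 10 given genes says little about them. These tables were made from the same samples and are not independent of the values above.

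Markers of glia rose in the synaptic band along with the subunits. All 10 astrocyte and all 10 microglia markers, 6 of 10 oligodendrocyte and 5 of 9 oligodendrocyte precursor markers tested were called higher in SNF against WCH. The summed astrocyte level was 13878 to 19233 CPM in SNF, and the summed microglia level was 291 to 587 CPM against 76.6 to 96.0 in WCH. Of general neuron markers 1 of 10 was called higher and 2 lower, of excitatory neuron markers 2 higher and 2 lower, and of inhibitory neuron markers 5 higher and 2 lower. With counts outside the mitochondrial genome as the library size, 10 astrocyte, 10 microglia and 5 oligodendrocyte markers were called higher, and 1 general neuron marker higher and 7 lower, 1 excitatory higher and 6 lower, and 5 inhibitory higher and 5 lower. No marker of these lists was called higher with all gene counts, and 9 general neuron, 9 excitatory, 5 inhibitory, 2 astrocyte, 7 oligodendrocyte, 3 precursor and 0 microglia markers were called lower. No neuronal or glial marker was at 0 in any library, and the part of these cells in the subunit levels was not tested.

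**Figure D2:**
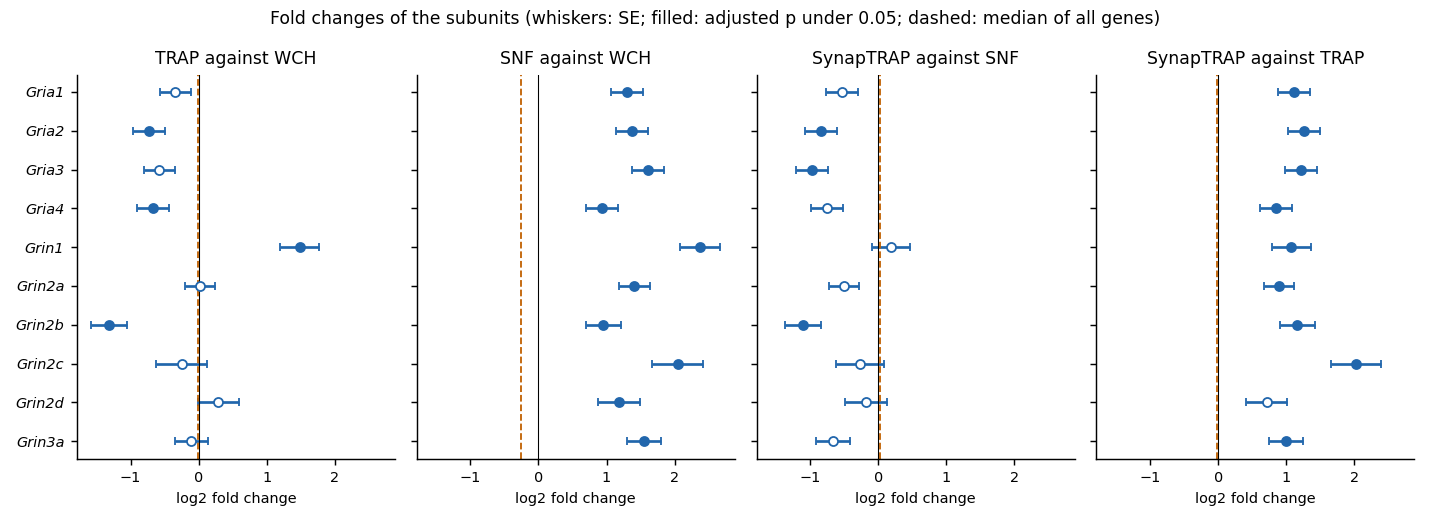
Log2 fold change (horizontal axis) of each subunit in the 4 comparisons, with SE as whiskers; filled points passed an adjusted p under 0.05 and the dashed line is the median of all genes tested. In SNF against WCH all points lie to the right of the line, and in TRAP against WCH Grin1 at 1.48 and Grin2b at -1.31 lie farthest out.

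After pull-down from the synaptic band all subunits but Grin1 had lower means than in the band itself, and 3 of them passed the test. Grin2b fell from its SNF values to 811, 1421 and 847 CPM in SynapTRAP, a log2 fold change of -1.10 (SE 0.261, adjusted p = 0.0210 in edgeR). Gria3 fell to 339.8, 459.6 and 345 CPM (log2 fold change -0.97, SE 0.229, adjusted p = 0.0207 in edgeR) and Gria2 to 552, 699 and 556 CPM (log2 fold change -0.84, SE 0.234, adjusted p = 0.0431 in edgeR). For these 3 genes all SynapTRAP libraries lay below all SNF libraries.

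Grin1 had 754, 1006 and 664 CPM in SynapTRAP, within and above its SNF range, with a log2 fold change of 0.18 (SE 0.281, adjusted p = 0.780 in edgeR). Gria4, with 59.8, 97.7 and 77.3 CPM, Grin2a, with 50.3, 63.0 and 56.0, and Grin3a, with 40.7, 73.0 and 38.8, lay below their SNF libraries without overlap. Their log2 fold changes of -0.75, -0.50 and -0.66 (SE 0.234, 0.220 and 0.247) did not pass the test. Gria1, at 217, 255 and 159.8 CPM, overlapped its SNF range, as did Grin2c, at 18.8, 6.75 and 9.44, and Grin2d, at 8.98, 13.4 and 11.8.

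In SynapTRAP against SNF, 3 subunits were thus called lower and 0 higher, where 1.79% of all genes tested were called lower and 2.29% higher. At an unadjusted p under 0.05 there were 7 of 10. The shares of all genes at that level, or without overlap between these groups, were not counted. DESeq2 called 4 lower and 0 higher, among 558 genes lower and 300 higher. The replicate numbers pair these 2 groups (their same-numbered libraries deviated together), and with the number as a block 5 were called lower, with Gria4 (-0.76, adjusted p = 0.0353 in edgeR) and Grin3a (-0.70, adjusted p = 0.0479 in edgeR) added. The block gave 393 lower and 441 higher over all genes. With 1 library fewer the calls changed: 0 were left without SNF replicate 2, SNF replicate 3 or SynapTRAP replicate 1, 1 without SNF replicate 1, 2 without SynapTRAP replicate 3, and 5 were made without SynapTRAP replicate 2. Over all genes the calls lower then ranged from 20, without SNF replicate 2, to 453, without SynapTRAP replicate 2. The sizes moved less than the calls: over these 6 fits the log2 fold change lay between -1.41 and -0.98 for Grin2b, between -1.13 and -0.89 for Gria3 and between -0.97 and -0.71 for Gria2. Fitted without the other 2 groups, 0 were called, with 140 genes higher and 121 lower over all genes. With RLE factors 4 were called lower, and the calls over all genes were 185 higher and 366 lower in place of 307 and 240. With all gene counts as the library size 10 were called higher and 0 lower, among 12171 genes higher and 6 lower. Under TMM scaling 0 of 10 astrocyte, 0 of 9 precursor, 1 of 10 oligodendrocyte and 1 of 10 microglia markers were called lower. These lists had 0 called higher. General neuron markers had 1 higher and 0 lower, excitatory 2 and 0, and inhibitory 0 and 0. With all gene counts 10 astrocyte, 9 precursor, 10 oligodendrocyte, 9 microglia and 10 markers of each neuron list were called higher. The part of these cells in the subunit results was not tested.

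Compared with tagged ribosomes of the homogenate, those of the synaptic band carried more of 9 of the 10 subunits. Grin2c had the largest difference, from 1.77, 3.805 and 3.08 CPM in TRAP to its SynapTRAP values (log2 fold change 2.03, SE 0.365, adjusted p = 0.000182 in edgeR). Gria2 was 1.26 higher (SE 0.236), Gria3 1.21 (SE 0.230), Grin2b 1.17 (SE 0.261), Gria1 1.12 (SE 0.233) and Grin1 1.08 (SE 0.284), with adjusted p from 0.000281 for Gria2 to 0.00476 for Grin1. Grin3a at 0.99, Grin2a at 0.89 and Gria4 at 0.85 were called as well, and each of the 9 had all SynapTRAP libraries above all TRAP libraries, as had 21.4% of all genes tested. Grin2d, whose groups overlapped, was at 0.71 (SE 0.298, adjusted p = 0.0607 in edgeR).

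Of all genes tested, 21.6% were called higher and 18.1% lower in SynapTRAP against TRAP, and the median of the subunits was 1.10 against -0.02. The replicate numbers pair these groups too, and with the block Grin2d was called (0.74, adjusted p = 0.0322 in edgeR), which made 10 of 10. The block gave 3054 higher and 2545 lower over all genes. With counts outside the mitochondrial genome as the library size 8 were called, without Gria4 (0.55, adjusted p = 0.0660 in edgeR), and the calls over all genes became 2053 higher and 3604 lower in place of 2899 and 2432. With all gene counts Grin2c was the only one called, at 1.06, among 594 genes higher and 6403 lower. Astrocyte markers and microglia markers were called higher for 10 of 10 each in this comparison, oligodendrocyte markers for 8 of 10 and precursor markers for 8 of 9, while of general neuron markers 2 were higher and 5 lower. Excitatory neuron markers had 2 higher and 4 lower, and inhibitory neuron markers 3 higher and 1 lower. The astrocyte and microglia lists had 9 of 10 each called higher with all gene counts, and general neuron markers 0 higher and 8 lower. Under that scaling excitatory markers had 0 higher and 6 lower, and inhibitory markers 1 higher and 5 lower. The summed astrocyte level was 9381 to 16491 CPM in SynapTRAP, and its part in the subunit results was not tested.

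**Figure D3:**
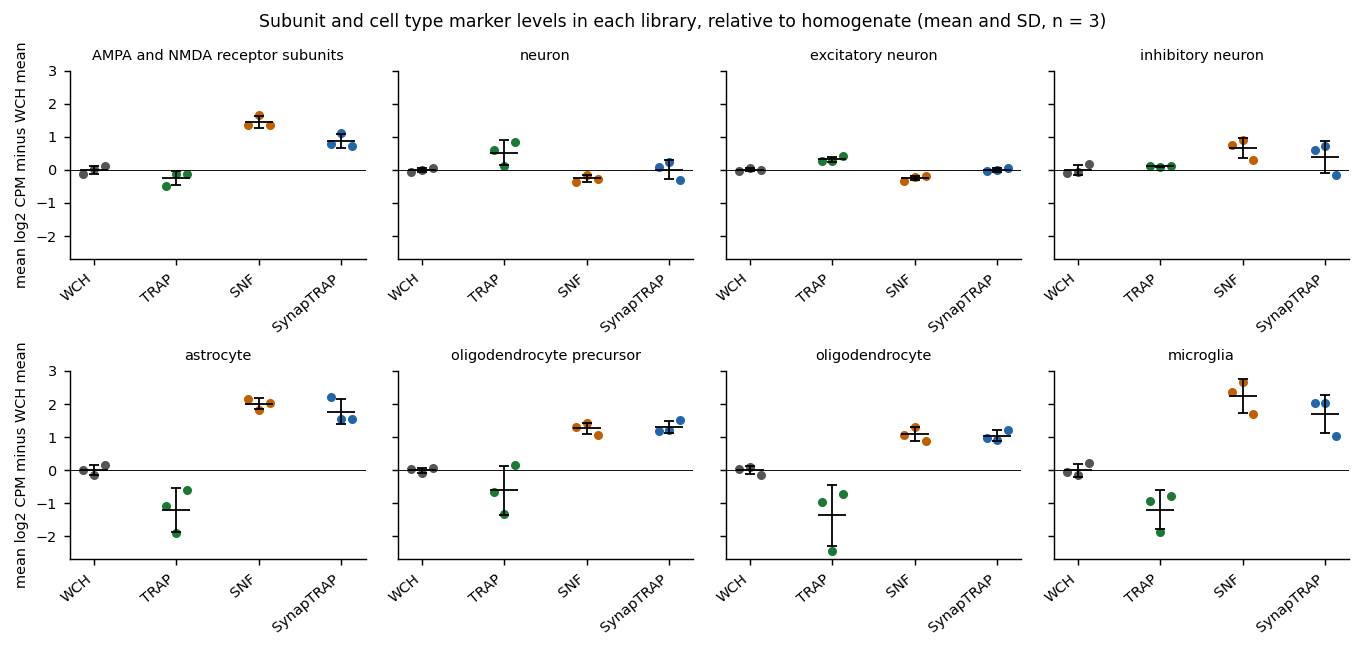
Mean log2 CPM of the 10 subunits and of 7 cell type marker lists in each library, minus the WCH mean of the list (vertical axis, log2; one scale for all panels); points are libraries, and bar and whiskers are mean and SD of 3. Subunits, astrocyte and microglia markers stand above WCH in SNF and SynapTRAP, while the neuron and excitatory neuron lists stay within 1 of WCH.

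Whether pull-down changed a subunit differently in the synaptic band than in homogenate was tested as the difference of both effects. No subunit was called, where 0.507% of all genes tested were called higher and 0.358% lower. Grin1 had the largest difference, -1.30 (SE 0.399, unadjusted p = 0.00353, adjusted p = 0.101 in edgeR), and it was the only one with an unadjusted p under 0.05. DESeq2 called Grin1 (-1.44, adjusted p = 0.0237), and edgeR called it without TRAP replicate 1 (-1.61, adjusted p = 0.0429) or without SynapTRAP replicate 2 (-1.49, adjusted p = 0.0430). In the same order these fits called 148, 112 and 241 of all genes higher and 326, 298 and 203 lower, more than the main fit did. With RLE factors the calls over all genes were 38 higher and 75 lower in place of 68 and 48, with counts outside the mitochondrial genome 118 and 43, and with all gene counts 6329 and 0, among them 4 subunits called higher, where Grin1 was at 0.22. In the main comparison the other 9 lay between -0.56 for Grin3a and 0.21 for Grin2b. The comparisons share the WCH, TRAP, SNF and SynapTRAP libraries pairwise, so their values above are not independent of each other.

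The balance of subunits can be read within a library, where neither library size nor scaling enters. The log2 ratio of Grin1 counts to the summed Grin2a, Grin2b, Grin2c and Grin2d counts was -2.89, -3.19 and -3.23 in WCH, -1.63, -1.55 and -1.97 in SNF, -0.59, -0.82 and 0.04 in TRAP, and -0.24, -0.58 and -0.48 in SynapTRAP. Homogenate was lowest, the synaptic band lay between, and both pull-downs overlapped at the top. The mean difference was 2.65 for TRAP against WCH, 1.39 for SNF against WCH and 1.29 for SynapTRAP against SNF, each without overlap, and 0.03 for SynapTRAP against TRAP.

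Each of the first 3 differences had the smallest p that an exact two-sided permutation test of 3 against 3 libraries allows, 0.1, so this design cannot pass 0.05. Over the 24 ratio comparisons made, their adjusted p was 0.218. For SynapTRAP against TRAP the exact permutation p was 0.9. In all ratio comparisons this test treats the libraries as unpaired, although the replicate numbers pair SynapTRAP with SNF and with TRAP.

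The ratio of Grin2a to Grin2b, whose rise marks maturation of cortical NMDA receptors, differed in the same order of preparations. Its log2 values were -5.26, -5.14 and -5.32 in WCH, -4.73, -4.78 and -4.85 in SNF, -4.18, -3.70 and -3.93 in TRAP, and -4.01, -4.50 and -3.92 in SynapTRAP. WCH lay below SNF, and SNF below both pull-downs, without overlap. The mean difference was 1.31 for TRAP against WCH, 0.45 for SNF against WCH and 0.65 for SynapTRAP against SNF (exact permutation p = 0.1 each), and -0.21 for SynapTRAP against TRAP (exact permutation p = 0.5).

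**Figure D4:**
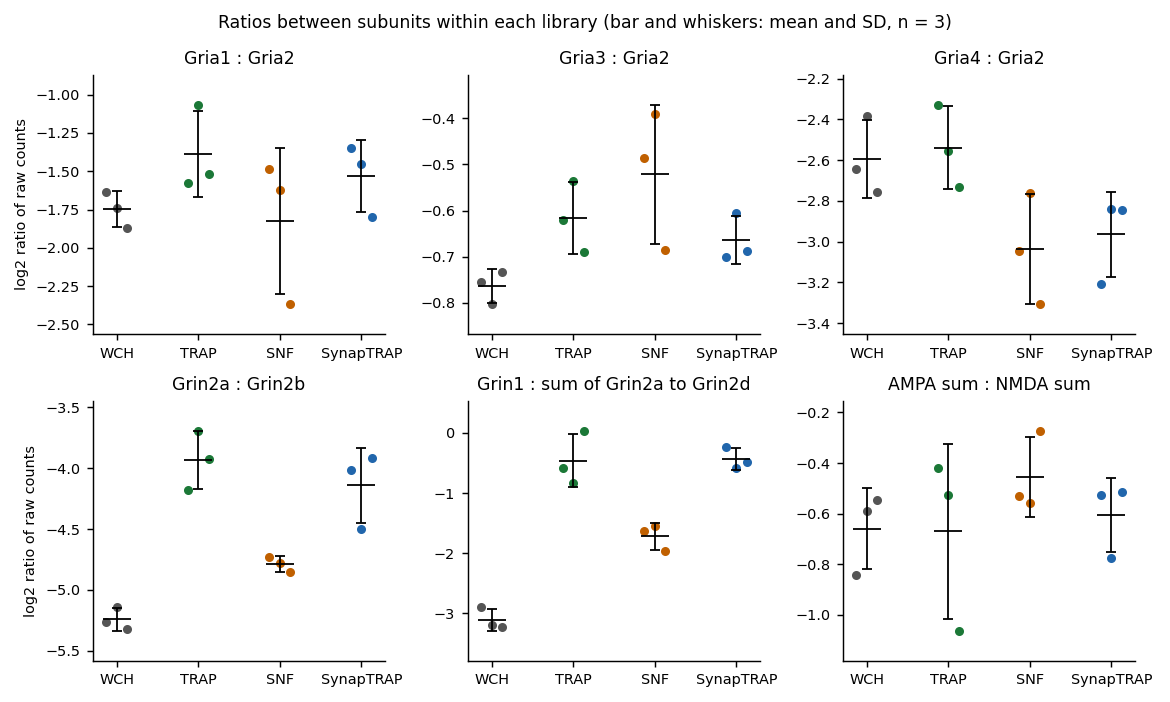
Log2 ratio of raw counts between subunits within each library (vertical axes, one range per panel), with bar and whiskers for mean and SD of 3 libraries. In the panels of Grin1 to the Grin2 sum and of Grin2a to Grin2b the WCH points are lowest, SNF is next, and TRAP and SynapTRAP overlap.

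Within the AMPA family, the log2 ratio of Gria1 to Gria2 averaged -1.75 for WCH, -1.39 for TRAP, -1.82 for SNF and -1.53 for SynapTRAP. Of its 4 comparisons only TRAP against WCH had no overlap. That of Gria3 to Gria2 was -0.76, -0.62, -0.52 and -0.66 in the same order, and TRAP and SNF each lay above WCH. That of Gria4 to Gria2 was -2.59, -2.54, -3.04 and -2.96. It was lower in SNF than in WCH by a mean difference of -0.44, and lower in SynapTRAP than in TRAP by -0.43, both without overlap (exact permutation p = 0.1 each).

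The log2 ratio of the summed AMPA to the summed NMDA subunit counts was -0.66 ± 0.160 for WCH, -0.67 ± 0.344 for TRAP, -0.45 ± 0.157 for SNF and -0.60 ± 0.146 for SynapTRAP (SD, n = 3), and the groups overlapped in all 4 comparisons, with exact permutation p from 0.2 to 1.

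Per kb of merged exons, Grin1 made up 21.6% ± 2.19 of the NMDA family in WCH, 41.0% ± 3.49 in SNF, 60.8% ± 7.85 in TRAP and 61.5% ± 2.19 in SynapTRAP (SD, n = 3). Grin2b made up 70.0% ± 2.06, 50.1% ± 3.57, 30.2% ± 5.07 and 30.03% ± 3.05 in the same order. Within the GluN2 subunits alone, Grin2b held 93.5% in WCH and 84.4% in SynapTRAP, and Grin2a 3.42% in WCH, 4.54% in SNF, 7.74% in TRAP and 6.68% in SynapTRAP. The shares depend on the length used: per kb of the longest coding sequence, Grin1 made up 14.9% in WCH, 31.0% in SNF, 51.2% in TRAP and 51.9% in SynapTRAP, with the same order of WCH, SNF and both pull-downs.

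In the AMPA family Gria2 held 32.2% ± 0.806 in WCH, Gria3 29.9% ± 1.38, Gria1 24.7% ± 1.46 and Gria4 13.2% ± 1.60. In SNF the share of Gria3 was 35.0% ± 1.18, above its WCH range, and that of Gria4 9.59% ± 0.954, below it. Per kb of coding sequence, which leaves out the long untranslated parts of Gria2, the share of Gria2 in WCH was 49.0%.

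**Figure D5:**
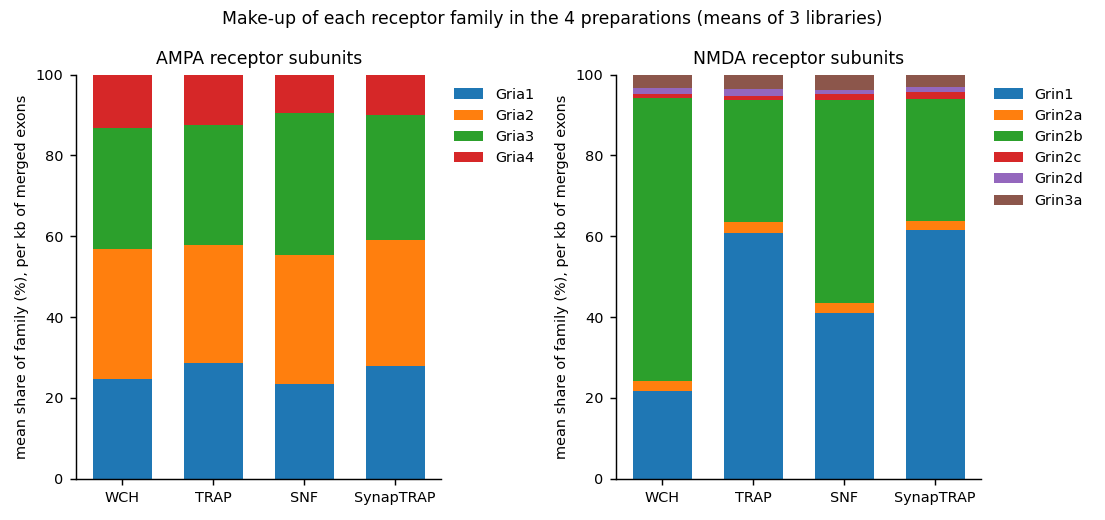
Mean share of each subunit in its family (vertical axis, percent, from 0 to 100) per kb of merged exons, for AMPA and NMDA receptors in the 4 preparations, each the mean of 3 libraries. The NMDA bars show Grin1 at 21.6% in WCH and above 60% in TRAP and SynapTRAP, and the AMPA bars show Gria3 at 29.9% in WCH and 35.0% in SNF.

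The order of the preparations differed between the genes. Gria1, Gria2, Gria3, Gria4, Grin2c and Grin3a had their means in the order SNF, SynapTRAP, WCH, TRAP from high to low. Of these genes only Gria2 and Gria3 had no overlap between any neighbours in this order. In Grin2a and Grin2d TRAP stood above WCH, with overlapping libraries. In Grin2b WCH (mean 1138 CPM) stood above SynapTRAP (1026 CPM), and those 2 overlapped. Grin1 was ordered SynapTRAP, SNF, TRAP, WCH, with overlap between SynapTRAP and SNF and between SNF and TRAP.

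Over the 12 libraries the genes most like each subunit were sought by the root mean square difference in log2 CPM after centring each gene. The gene nearest to Gria3 was Gria2, with a difference of 0.115, and the protocadherin gene Pcdh17 came second (0.119). Pcdh17 was also nearest to Gria2 (0.111), just before Gria3. Grin1 stood apart from the other subunits: its nearest one was Grin2a, at 0.680, with 889 genes nearer. Among the genes most like Grin1 was Clstn3 (0.165), a calsyntenin. For Grin2a they were the calcium channel gene Cacna1c (0.113) and the neurotrophin receptor gene Ntrk3 (0.141). For Grin2b they were Vldlr (0.153) and Tmem245 (0.159), for Grin3a Lgi1 (0.155) and Pcsk5 (0.161), for Gria1 Znrf3 (0.110) and Slc38a1 (0.125), and for Gria4 Tvp23b (0.184) and Entpd7 (0.185). Grin2c was most like Mmd2 (0.288) and Ttyh1 (0.303), and Grin2d most like Il17ra (0.157) and Ddrgk1 (0.169). The points share library depth and scaling, so these are descriptions.

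The list of AMPA receptor auxiliary subunits, which escort the receptors or shape their gating, also holds genes that are not such subunits, among them Frrs1l. Its genes too were mostly higher in the synaptic band. Of 13 tested, 12 were called higher in SNF against WCH and 0 lower, with a median log2 fold change of 1.20, against 7 and 0 (median 0.80) with counts outside the mitochondrial genome as the library size and 0 and 10 (median -1.15) with all gene counts. Cacng5 (1.88, SE 0.350), Porcn (1.79, SE 0.251), Shisa9 (1.62, SE 0.264) and Gsg1l (1.43, SE 0.206) had the largest. In TRAP against WCH 3 were higher (Porcn at 1.13, Cpt1c at 0.81 and the cornichon Cnih2 at 0.76) and 1 lower, Frrs1l (-1.01), an endoplasmic reticulum factor of AMPA receptor assembly. In SynapTRAP against SNF 3 fell (Gsg1l by 1.29, Shisa6 by 0.95 and Cnih3 by 0.75 on the log2 scale), and in SynapTRAP against TRAP 8 rose, led by Cacng4 (1.74), against 2 higher and 1 lower with counts outside the mitochondrial genome and 0 higher and 2 lower with all gene counts. The pull-down effect on Gsg1l differed between band and homogenate (-1.35, SE 0.288, adjusted p = 0.0321 in edgeR).

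Of 22 partners of AMPA receptor trafficking and assembly, 9 were called higher and 2 lower in SNF against WCH, with Sorcs2 (2.09), Olfm3 (1.88), and the pentraxins Nptxr (1.87) and Nptx1 (1.77) in front. The median was 0.27, and with counts outside the mitochondrial genome as the library size it turned to -0.13, with 8 called higher and 8 lower. In TRAP against WCH 3 rose and 0 fell: the clathrin adaptor genes Ap2a1 (1.24) and Ap2m1 (0.71), and Olfm2 (1.11). In SynapTRAP against SNF 2 rose, Ap2a1 (1.10) and Epb41l1 (1.06), and 0 fell. In SynapTRAP against TRAP 6 rose and 2 fell, the fusion ATPase gene Nsf (-1.29) and Ap2m1 (-1.10). There 5 were higher and 4 lower with counts outside the mitochondrial genome, and 0 higher and 9 lower with all gene counts, which also gave 10 higher in TRAP against WCH. The pull-down effect on Olfm2 differed as well (-1.62, SE 0.318, adjusted p = 0.0236 in edgeR).

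Of 22 tested genes of NMDA receptor partners and co-agonist metabolism, 10 were higher and 1 lower in SNF against WCH, with the glycine transporter Slc6a9 (2.04), Grina (1.84), the serine transporter Slc1a4 (1.69) and Ephb2 (1.60) in front, against 7 and 7 with counts outside the mitochondrial genome as the library size. In TRAP against WCH Neto2 fell (-1.44), and Grina (1.40), Ptk2b (0.88) and Ptpn5 (0.63) rose. Neto2 fell also in SynapTRAP against SNF (-1.30), where Shmt2 (1.68) and Ptk2b (0.96) rose. In SynapTRAP against TRAP 10 rose and 1 fell, led by Slc7a10 (2.88) and Phgdh (2.84), genes of serine transport and synthesis that astrocytes are known to express, against 7 and 2 with counts outside the mitochondrial genome and 4 and 5 with all gene counts. Grin3b, the other GluN3 gene, had 0 to 12 counts per library and was not tested.

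The 8 kainate and delta receptor subunits, the other ionotropic glutamate receptor genes, rose in the band for 6 and fell for 0, among them Grik3 (1.48), Grid1 (1.45) and Grik5 (1.21), and with counts outside the mitochondrial genome as the library size for 5 and 0. In TRAP against WCH Grik5, a high-affinity subunit, rose (1.05), and Grik1 (-0.96) and Grik2 (-0.71) fell. Grik2 fell also in SynapTRAP against SNF (-1.02), and in SynapTRAP against TRAP 5 rose and 0 fell, against 3 and 0 with counts outside the mitochondrial genome and 0 and 0 with all gene counts. For 0 of the 8 did the pull-down effects differ at an adjusted p under 0.05.

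Of the 3 genes of the adenosine deaminase family that includes the editing enzymes of receptor transcripts, 2 fell in SNF against WCH, Adarb2 (-0.99) and Adar (-0.68). With RLE factors 0 of the 3 were called there (median -0.55), and with counts outside the mitochondrial genome 3 were called lower. Adarb1, which edits the Gria2 transcript, was called in 1 comparison, SynapTRAP against SNF (1.02, SE 0.239, adjusted p = 0.0200 in edgeR). Adar fell in SynapTRAP against TRAP (-0.85), and 0 of the 3 were called in TRAP against WCH. The calls of these 5 lists come from the adjustment over all genes tested, to be read against the shares of all genes given above. With all gene counts as the library size each list had 0 genes called higher in SNF against WCH, and in SynapTRAP against SNF 12 of 13, 22 of 22, 21 of 22, 8 of 8 and 3 of 3 of their genes were called higher. The medians of the auxiliary, trafficking, NMDA partner and kainate and delta lists in SNF against WCH were above the median of all genes, -2.60, under that scaling.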

How the data were processed

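RNA was sequenced from 12 mouse cortex libraries, with cDNA made with a NuGEN kit, per the labels' protocols. Bowtie2, STAR, HTSeq and edgeR were used, per the submitters' processing notes. The sources used here give no versions, build, annotation or strand setting. The authors deposited raw counts for 29879 genes per library. The 5 summary lines that follow held 19.3% to 58.3% of a library's reads and were left out. Tables of selected genes, also deposited, hold log2 fold changes, log2 CPM, p-values and likelihood ratio scores by the authors, per the file headers, and of these the fold changes are quoted.

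Symbols for 28842 identifiers and all coordinates came from GENCODE M21 (GRCm38), and 1037 identifiers had none. All 12 libraries were fitted in edgeR 4.0.16 (R 4.3.3) with TMM scaling, the default filter, group means and robust quasi-likelihood tests, with Benjamini-Hochberg adjustment over 13404 genes in each of 5 contrasts. The script was tested on simulated counts. Ratios between subunits used raw counts with exact two-sided permutation tests of unpaired libraries, and per-length levels used merged exons.

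The members and the lists (5 of pathway genes and 8 of cell type markers) were chosen with earlier results of these data known. All 10 members are named, then up to 4 called genes of largest change per pathway list and contrast, and the 2 genes most like each member. Some items that these rules select are not reported here. The endothelial list had 1 of 9 markers tested called, higher in SNF against WCH, and no other call.

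Alternatives were RLE factors, library sizes from all counts or from counts outside the mitochondrial genome, no filter, DESeq2 1.42.0, only the groups compared, a replicate block, each library left out, and coding length. As a check of pairing, deviations from the group means were correlated between libraries of different groups. Same-numbered libraries gave 0.218 to 0.378 for SNF with SynapTRAP and 0.104 to 0.144 for TRAP with SynapTRAP, so these were taken as paired from the data, since the labels do not say what a number marks. Libraries of 1 group differed by more than sampling noise, with a chi-square per gene of 8.28 to 252. Gene counts of 4368881 to 14335089 per library set the precision of low genes.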

Additional observations from a re-analysis of the deposited data

Results flagged for a closer look

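The effect of pull-down differed between the synaptic band and homogenate for 2 genes of the pathway lists, by the test of the difference itself. For Gsg1l, an auxiliary subunit of AMPA receptors, the log2 fold change was 0.06 (SE 0.202) in TRAP against WCH and -1.29 (SE 0.206) in SynapTRAP against SNF, a difference of -1.35 (SE 0.288, adjusted p = 0.0321 in edgeR). For Olfm2, an olfactomedin, the values were 1.11 (SE 0.226) and -0.51 (SE 0.224), a difference of -1.62 (SE 0.318, adjusted p = 0.0236 in edgeR). The sizes of these differences under the alternatives are not given here. The list of each gene had 1 call lower with RLE factors and with counts outside the mitochondrial genome, and 0 lower with all gene counts. Without WCH replicate 2, or without SNF replicate 1, 0 of all genes tested were called in this difference, so neither gene was.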

How the results depend on the processing

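With all gene counts as the library size, the subunits called lower fell from 3 to 0 in TRAP against WCH. In SNF against WCH 0 were then called higher and 6 lower, in SynapTRAP against SNF 10 higher and 0 lower, in SynapTRAP against TRAP 1 higher, and 4 had a higher pull-down effect in the band than in homogenate. This construction counts mitochondrial RNA, and the directions that turned were, on the log2 scale: in TRAP against WCH Gria1 0.26, Gria3 0.0251, Grin2c 0.35 and Grin3a 0.48; in SNF against WCH Gria1 -1.03, Gria2 -0.94, Gria3 -0.70, Gria4 -1.39, Grin2a -0.93, Grin2b -1.37, Grin2c -0.29, Grin2d -1.15 and Grin3a -0.80. In SynapTRAP against SNF they were Gria1 1.51, Gria2 1.15, Gria3 1.02, Gria4 1.22, Grin2a 1.47, Grin2b 0.93, Grin2c 1.71, Grin2d 1.79 and Grin3a 1.39, and in SynapTRAP against TRAP Gria4 -0.0899, Grin2a -0.0486 and Grin2d -0.26. In the difference of the pull-down effects they were Gria1 1.25, Gria2 1.28, Gria3 0.995, Gria4 1.30, Grin1 0.22, Grin2a 0.88, Grin2c 1.35, Grin2d 0.89 and Grin3a 0.90.

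Values near 0 that were not called also turned. With counts outside the mitochondrial genome as the library size, Grin2a was at -0.11 in TRAP against WCH, and Gria4 at 0.0191 and Grin2c at 0.0970 in the difference of effects, where Grin2c was at 0.0066 without a filter. With the replicate block Grin2a was at -0.0035 in TRAP against WCH. Leaving out 1 library, Grin2a ranged from -0.0590 to 0.23, Grin2c from -0.47 to 0.0416 and Grin3a from -0.26 to 0.0445 in TRAP against WCH. Grin1 ranged from -0.00120 to 0.38, Grin2c from -0.91 to 0.0200 and Grin2d from -0.32 to 0.0378 in SynapTRAP against SNF. In the difference of effects Gria2 ranged from -0.29 to 0.0179, Gria4 from -0.28 to 0.0844, Grin2b from -0.0978 to 0.33 and Grin2c from -0.69 to 0.27.

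Leaving out 1 library gave 1 subunit called lower in TRAP against WCH each time, 0 to 5 in SynapTRAP against SNF, and 0 to 1 in the difference of effects. In SynapTRAP against SNF the calls lower over all genes then ranged from 20 to 453, and in the difference of effects from 0 to 298. With the replicate block 5 were called lower in SynapTRAP against SNF, and with only the groups of the contrast fitted 0. With DESeq2 1 was called lower in the difference of effects, among 148 genes higher and 326 lower. The block changed the call of no subunit in TRAP against WCH or SNF against WCH. Over all pairs of groups 9 of 18 same-numbered pairs correlated above 0.1. The range was -0.0149 to 0.0634 for WCH with TRAP and 0.0651 to 0.165 for WCH with SNF. The 24 ratio differences were recomputed without each library in turn. The 11 whose groups did not overlap kept their direction in 66 of 66 such values, and 7 of the other 13 turned in at least 1. These were Gria1 to Gria2 in SNF against WCH (-0.246 to 0.197) and in SynapTRAP against TRAP (-0.242 to 0.0161), Gria4 to Gria2 in TRAP against WCH (-0.0514 to 0.160) and in SynapTRAP against SNF (-0.0604 to 0.211), Grin1 to the Grin2 sum in SynapTRAP against TRAP (-0.155 to 0.275), and the AMPA to the NMDA sum in TRAP against WCH (-0.135 to 0.186) and in SynapTRAP against TRAP (-0.131 to 0.190). Their p-values say nothing of stability, since this design cannot pass 0.05. Per coding length, 33 of 40 family shares moved by more than 1 SD. Apart from all gene counts, Grin1 and Grin2b in TRAP against WCH were called in 12 of 12 alternatives. The cause of the changes was not tested beyond the construction of each alternative. Grin2c and Grin2d, with at most 234 counts in a library, are limited by depth.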
